A study of Homo sapiens with 12 samples.

Results

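ML-2 is an established human acute myeloid leukaemia cell line. The profile described here is that of ML-2 cells given solvent in place of drug, which are 3 of the 12 arrays of a study of cell death in these cells. The members were chosen by label alone, as the 3 solvent-treated samples. All 12 arrays came from this 1 cell line, and the series design states that every group was collected in 3 independent experiments. The titles number the arrays 2, 9 and 13 in each group, and the numbers carry no order. The SGI-110 arrays held cells given 2 µM SGI-110 (guadecitabine, a DNA hypomethylating agent that releases decitabine) for 33 h. The ASTX660 arrays held cells given 5 µM ASTX660, an antagonist of inhibitor of apoptosis proteins (IAPs), for 9 h. In the combination arrays 24 h of SGI-110 at 2 µM preceded 9 h of ASTX660 at 5 µM. The solvent arrays had neither agent.

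Acute myeloid leukaemia is a clonal growth of blood progenitors that stop maturing part of the way to granulocytes or monocytes, so the lineage genes that such cells express record where they stopped. ML-2 is known for a fusion of KMT2A, a histone methyltransferase gene, with AFDN, a cell junction adaptor gene. KMT2A fusions are known to drive HOX genes and their partner MEIS1 in leukaemia. IAPs such as XIAP and BIRC2 hold back caspases and steer signalling from tumour necrosis factor (TNF) receptors, so the receptors, adaptors, caspases and BCL2 proteins present before treatment form the apparatus on which an IAP antagonist acts.

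Each array held an RMA log2 intensity for 54675 probe sets, and 19775 genes could be read from 1 probe set each, the brightest of the gene over all 12 arrays. No detection p-value was used. A level that a gene without transcript can have was therefore taken from 158 genes of families foreign to blood cells, such as olfactory receptors, hair keratin-associated proteins and bitter taste receptors. The 95th percentile of these genes is called the reference level. It lay at 5.58, 5.72 and 5.50 log2 units in solvent arrays 2, 9 and 13, close to percentile 61.5, 63.1 and 60.6 of all probe sets. A gene was counted as above it when it exceeded it in all 3 solvent arrays, as not above it when it did so in none, and as mixed otherwise. Probe sets differ in affinity, so levels are set against the reference level and the array, not gene against gene, and a gene counted as not above it may still have transcripts that its probes did not show.

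The solvent arrays differed little. Pearson's r across genes was 0.998 for each of the 3 pairs, the median SD of a gene was 0.0837 log2 units, and between 97.7 and 98.3% of genes lay on the same side of the reference level in both arrays of a pair. The 3′ and 5′ probe sets of ACTB and GAPDH, a check of RNA integrity, differed by no more than 0.04 log2 units. All 14 housekeeping genes measured were above the reference level. Over all genes 9863, or 49.9%, were above it, 582 were mixed and 9330, or 47.2%, were not above it. The share depended on how many probe sets a gene had, with 76.8% of genes with 5 or more above it and 34.4% of genes with 1.

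Of 548 genes on the lists of lineage, leukaemia and death genes, 497 were measured and the other 51 were not analysed here. Above the reference level were 262 of the 497 (52.7%), 22 were mixed and 213 were not above it. By theme, 94 of 245 lineage genes (38.4%), 82 of 131 leukaemia genes (62.6%) and 86 of 122 death genes (70.5%) were above it. Listed genes with several probe sets were above it in 56.3% of cases, against 63.5% of all such genes, and listed genes with 1 probe set in 46.4%, against 34.4%. In 348 of the 497 genes the class held in each of 11 alternative settings. A named gene above or not above the level that changed class in any of them is called unstable below. Mixed genes lie at the level, and each of the 22 changed class in some setting. The plot of shares by list shows all but the HOXA list, of which 1 gene was measured.

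**Figure D1:**
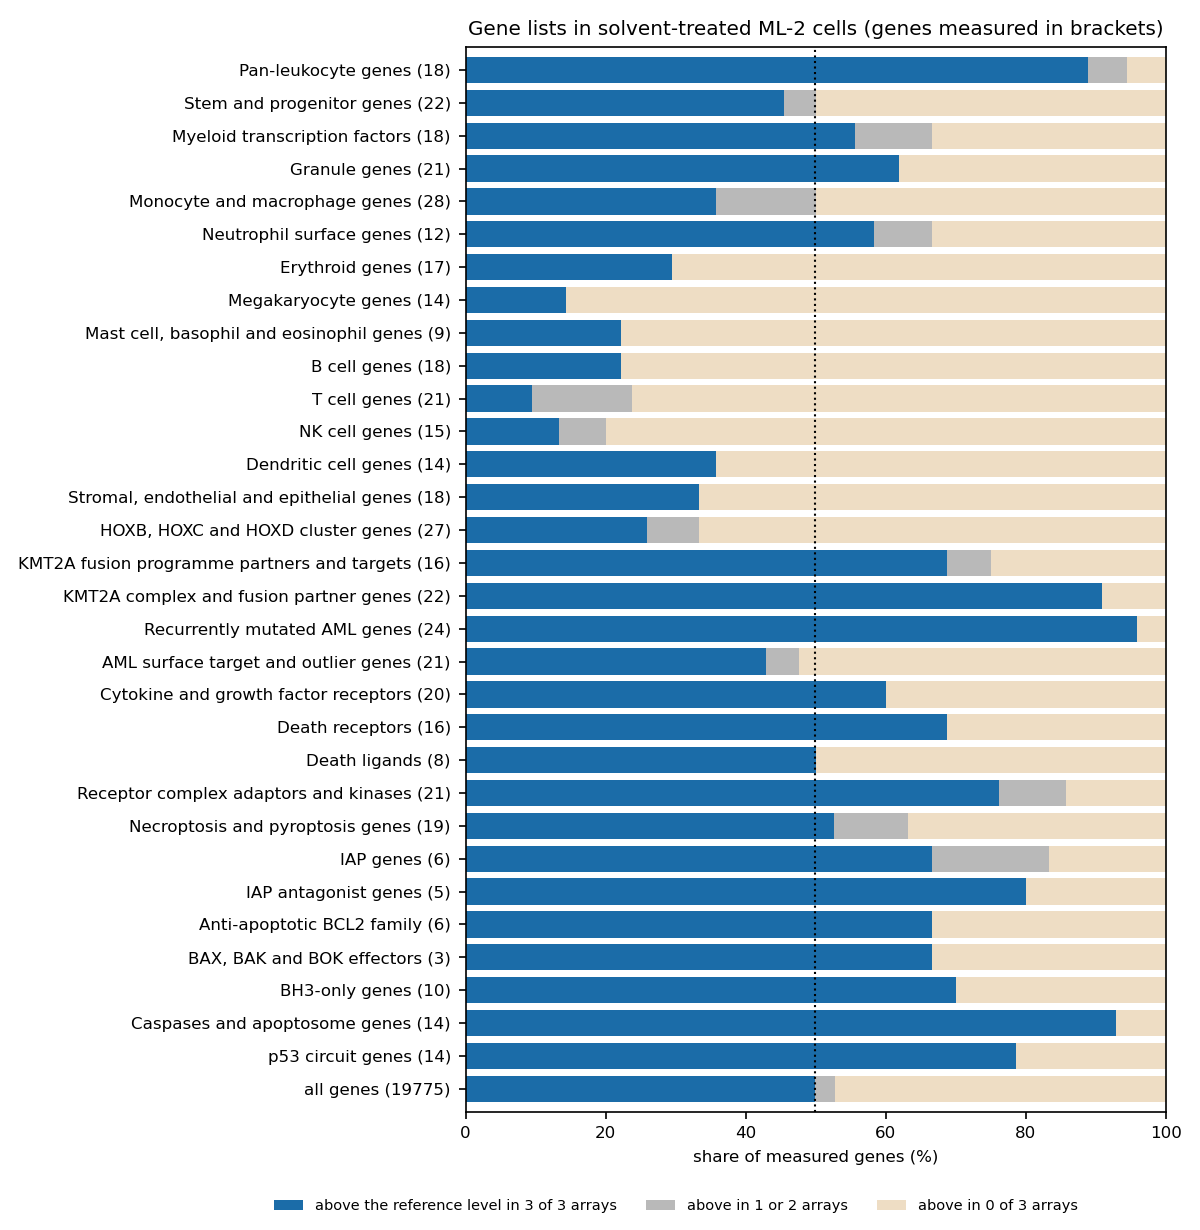
Share of measured genes (%) in each list, with the number of genes in brackets, that was above the reference level in 3 of 3 solvent arrays, in 1 or 2 arrays, or in none. The dotted line marks 49.9%, the share of all 19775 genes, and lists of mutated leukaemia genes, caspases and leukocyte genes extend far to its right while T cell, NK cell and megakaryocyte lists end to its left.

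Genes common to leukocytes were nearly all above the reference level, 16 of 18, and those 16 calls held in each setting. LAPTM5, a lysosomal membrane protein of blood cells, stood at 12.17, 12.02 and 12.26 in solvent arrays 2, 9 and 13, at or above percentile 98.8 in each. CORO1A, an actin regulator of leukocytes, stood at 10.71, 10.78 and 10.69. PTPRC, which encodes the CD45 phosphatase, stood at 8.11, 7.71 and 8.31. Array 9 was lowest for LAPTM5 and PTPRC and highest for CORO1A, and all values cleared the reference level by about 2 log2 units or more. CD48, an adhesion molecule, was the gene not above it, and CD37, a tetraspanin, was mixed at 5.68, 4.88 and 5.29. The arrays read whole cultures, so fewer cells with a transcript and less of it per cell cannot be told apart.

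The progenitor genes were divided, with 10 of 22 above the reference level, 1 mixed and 11 not above it. MYB, a transcription factor that keeps progenitors dividing, stood at 12.10, 12.07 and 12.04, at percentile 98.9. FLT3, a growth factor receptor often mutated in this leukaemia, stood at 7.73, 7.65 and 8.22, with array 13 highest. CD38, an ectoenzyme of committed progenitors, stood at 8.25, 7.81 and 8.35. By contrast, surface markers used to define more primitive cells were low. CD34 had 4.65, 5.25 and 4.70, an unstable class, with array 9 highest. The stem cell factor receptor gene KIT had 3.87, 3.75 and 3.80, near percentile 31.3 to 33.9, and PROM1, which encodes CD133, had 2.71, 3.08 and 2.63. Neither changed class in any setting. MECOM, MN1, BAALC, HLF and SPINK2, genes of stem cells and of leukaemias with poor outcome, were also not above the reference level and ranged from 3.19 to 3.82 over the 3 arrays. LMO2, GATA2, TAL1 and ERG, transcription factors of early blood cells, were above it but unstable, and ERG was closest at 5.87, 5.73 and 6.02. LYL1 and SOX4, also transcription factors of this list, were above it in each setting, and CD109 was above it but unstable. THY1 was mixed at 5.46, 5.71 and 5.72.

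Myeloid transcription factors gave 10 of 18 above, 2 mixed and 6 not above the reference level. The share above it was 55.6%, against 49.9% of all genes. IRF8, which directs progenitors towards monocytes and dendritic cells, stood at 11.82, 11.74 and 11.84. CEBPA, needed for the first step to granulocytes, stood at 10.79, 10.75 and 10.74, and GFI1, its partner in the neutrophil path, at 9.13, 9.05 and 9.10. The 3 arrays lay within about 0.1 log2 units of each other for each of these genes. SPI1, which encodes the master myeloid factor PU.1, was closer to the reference level at 6.98, 6.78 and 6.99. CEBPE, which drives late granulocyte maturation, was not above it at 5.02, 5.15 and 5.07, an unstable class. KLF4, a monocyte factor, was far below at 3.41, 3.25 and 3.45, and EGR1, another factor of monocyte maturation, was at 4.54, 4.39 and 4.42. KLF2 and NFE2 were mixed.

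Most granule genes given a stage below split by when granulocytes are known to make them, with CAMP and MMP9 as exceptions. Of 21 genes 13 were above the reference level and 8 were not. The share above it was 61.9%, against 49.9% of all genes. The primary granule proteases and enzymes of promyelocytes were among the brightest signals of the array. CTSG, which encodes cathepsin G, stood at 14.05, 14.02 and 13.92, at or above percentile 99.9. ELANE, neutrophil elastase, stood at 13.68, 13.66 and 13.61, and MPO, myeloperoxidase, at 13.49, 13.40 and 13.20. PRTN3 (13.22, 13.07 and 12.96) and AZU1 (11.79, 11.59 and 11.70) belong to the same early set and kept their class in every setting. LYZ, RNASE2, MS4A3, CFD, SERPINB1 and SRGN were also above the reference level in every setting. Array 13 was lowest for CTSG, ELANE, MPO and PRTN3 by at most 0.29 log2 units. Genes of secondary and tertiary granules, made later, were low. LTF, lactoferrin, had 4.24, 4.58 and 4.24, LCN2, a siderophore-binding protein, had 4.53, 4.75 and 4.36 (unstable), and MMP8, a collagenase, had 3.39, 3.55 and 3.63. CEACAM8, ARG1 and PGLYRP1 were not above the reference level either, PGLYRP1 with an unstable class. CST7 and CLC, other members of this list, were not above it in any setting. The later granule genes CAMP (6.10, 6.03 and 6.08) and MMP9 (5.67, 5.83 and 5.69) were above it by a small margin and unstable.

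Monocyte and macrophage genes gave 10 of 28 above, 4 mixed and 14 not above the reference level. MNDA, a nuclear antigen of myeloid cells, stood at 10.60, 10.35 and 10.47. TLR2, a receptor for bacterial lipoproteins, stood at 9.64, 9.38 and 9.48, and TYROBP, an activating adaptor, at 9.08, 8.83 and 9.07. Array 9 was the lowest of the 3 for each of them. AIF1, CTSS, MS4A7, FCER1G and TLR4 were above the reference level too, and FCGR2A and CD4 (6.09, 5.94 and 5.94) were above it but unstable. The markers of mature monocytes were low. CD14, the lipopolysaccharide co-receptor, had 3.71, 3.92 and 3.51, and the calprotectin genes S100A8 and S100A9 had 3.96, 3.98 and 3.93, and 3.72, 3.25 and 3.87. FCN1, S100A12, CD36, FCGR1A and the macrophage receptor genes MRC1 and CD163 were likewise not above the reference level.

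The 4 mixed monocyte genes straddled the reference level. ITGAM, which encodes the CD11b integrin chain, had 5.75, 4.54 and 5.44, a range of 1.21 log2 units, with array 9 lowest. VCAN, a proteoglycan of monocytes, had 5.82, 5.58 and 6.95, with array 13 highest and a range of 1.37. CSF1R, the macrophage growth factor receptor, had 5.65, 5.70 and 5.83, close to the reference level in each array. FGL2, a secreted fibrinogen-like protein, had 5.54, 5.15 and 5.76.

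Neutrophil surface genes gave 7 of 12 above the reference level, or 58.3%, against 49.9% of all genes and 63.5% of those with several probe sets. CXCR4, the chemokine receptor that holds cells in bone marrow, stood at 11.66, 11.45 and 11.63. CSF3R, the granulocyte growth factor receptor, stood at 8.33, 8.21 and 7.96, and CXCR2, an interleukin-8 receptor, at 8.41, 8.17 and 8.06. FUT4, which makes the CD15 sugar, was also high. Array 13 had the lowest value for both CSF3R and CXCR2. FCGR3B, ALPL and FPR1 (unstable), genes of ripe neutrophils, were not above the reference level, and FCGR3B had 3.20, 3.36 and 3.26. Other members of this list, CXCR1, CEACAM3 and MME, were above it but unstable, and CEACAM1 was mixed.

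**Figure D2:**
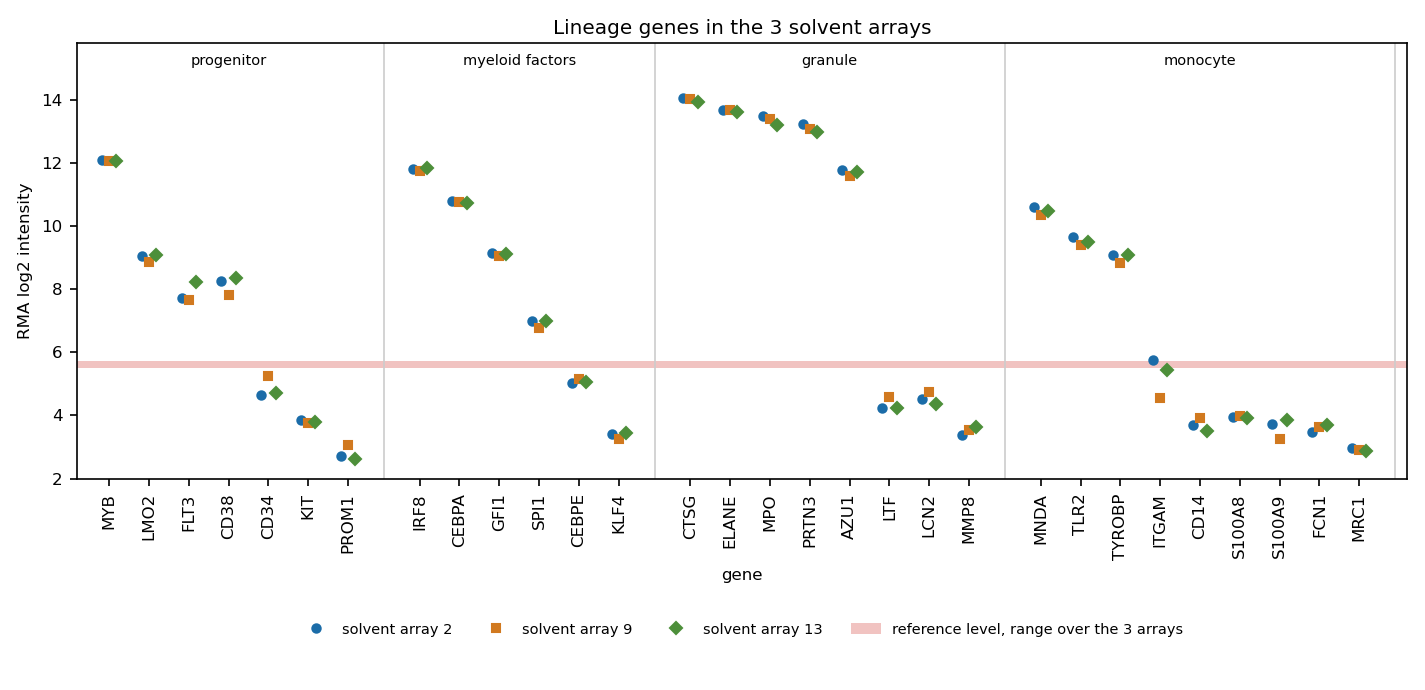
RMA log2 intensity of progenitor, myeloid transcription factor, granule and monocyte genes in solvent arrays 2, 9 and 13 (1 symbol each). The shaded band spans the reference level of the 3 arrays, 5.50 to 5.72, and CTSG, ELANE, MPO and PRTN3 lie near 13 to 14 while LTF, MMP8, CD14 and S100A9 lie below the band.

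The genes of other blood lineages and of non-blood cells were mostly low. Erythroid, megakaryocyte, mast cell, B, T, NK and stromal lists together had 23 of 112 genes above the reference level, or 20.5%, and 10 when it was set at the 99th percentile. Among erythroid genes 5 of 17 were above it. They included the transferrin receptor gene TFRC (12.44, 12.27 and 12.16), which dividing cells of many kinds express, and EPOR (8.19, 8.23 and 8.06), while KLF1, HEMGN, AHSP and ALAS2 (unstable) were not above it. GATA1, HBB and XK were the remaining 3, all unstable. Among megakaryocyte genes 2 of 14 were above it, GP9 and ITGB3, both unstable.

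In the mast cell, basophil and eosinophil list 2 of 9 genes were above the reference level. TPSAB1, a tryptase, had 7.92, 7.62 and 7.90, and PRG2, the eosinophil major basic protein, had 7.35, 6.83 and 6.68. Both classes held in each setting, whereas CPA3, HDC, FCER1A and EPX were not above it.

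Lymphoid genes showed isolated members above the reference level. Of 18 B cell genes 4 were above it, and IGLL1, a surrogate light chain of B cell precursors, was the stable member at 7.91, 8.63 and 7.87, with array 9 highest. CD79A, EBF1 and CD22 were unstable, and MS4A1, CD79B, RAG1, DNTT and PAX5 (unstable) were not above it. Of 21 T cell genes 2 were above it, CD6 and PTCRA, both unstable, and 3 were mixed, CD3E, CD5 and CD8B. CD3G, CD2, CD7, LCK and CD3D (unstable) were not above it. Of 15 NK cell genes 2 were above it in each setting. NKG7, a granule membrane protein of cytotoxic cells, had 8.87, 8.80 and 8.88, and NCAM1, which encodes CD56, had 8.26, 8.22 and 8.19. The cytotoxic genes PRF1, GZMB and GNLY and the factor TBX21 were not above it, PRF1 and GNLY with unstable classes, and NCR1 was mixed at 5.72, 5.49 and 5.49.

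Dendritic cell genes gave 5 of 14 above the reference level. TCF4, the factor that defines plasmacytoid dendritic cells, stood at 10.70, 10.55 and 10.96, with all 8 of its probe sets above it. The interferon regulator IRF7 was above it at 7.28, 7.43 and 7.29. The surface markers of those cells, CLEC4C (3.03, 3.08 and 3.02) and LILRA4 (4.39, 4.42 and 4.30), were not above it, nor were CLEC10A and CD1C (unstable). Other members of the dendritic cell list went the other way. CD83 was above the reference level in each setting, and CCR7 and BATF3 were above it but unstable. Of 18 stromal, endothelial and epithelial genes 6 were above it. The stable member was PECAM1, the adhesion molecule CD31, which myeloid cells also express, at 9.84, 9.53 and 9.84. COL1A1, ACTA2, KRT8, KRT18 and DES were unstable, COL1A1 with 1 of its 5 probe sets above the level, and EPCAM, CDH1, CDH5 and ALB were not above it.

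Promoters of 3 genes are shown because the solvent level of CTSG was among the highest measured and those of MEIS1 and GSDME, described below, were low. They are the 250 bases before the gene start in the RefSeq table (GRCh38.p14), read along the gene's strand, with CG dinucleotides, the sites at which DNA methylation is placed, in capitals. CTSG lies on the minus strand at chr14:24576251-24576500, MEIS1 on the plus strand at chr2:66434875-66435124 and GSDME on the minus strand at chr7:24757465-24757714.
CTSG: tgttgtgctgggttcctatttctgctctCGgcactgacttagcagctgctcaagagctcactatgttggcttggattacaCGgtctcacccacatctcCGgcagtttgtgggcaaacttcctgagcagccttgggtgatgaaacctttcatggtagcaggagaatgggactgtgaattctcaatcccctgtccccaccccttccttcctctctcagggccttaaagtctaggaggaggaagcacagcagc
MEIS1: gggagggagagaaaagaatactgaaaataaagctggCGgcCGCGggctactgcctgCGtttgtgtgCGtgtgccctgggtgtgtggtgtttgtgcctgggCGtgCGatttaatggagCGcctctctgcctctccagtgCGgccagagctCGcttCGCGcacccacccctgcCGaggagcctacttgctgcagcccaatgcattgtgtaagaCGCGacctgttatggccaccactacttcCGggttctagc
GSDME: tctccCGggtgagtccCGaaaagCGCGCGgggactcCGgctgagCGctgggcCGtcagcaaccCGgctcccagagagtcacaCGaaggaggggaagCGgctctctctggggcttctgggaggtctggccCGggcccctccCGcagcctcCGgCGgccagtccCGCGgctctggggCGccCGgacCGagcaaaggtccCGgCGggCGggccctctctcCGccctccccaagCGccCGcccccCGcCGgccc
The CTSG window holds 3 CG, a number that 76.4% of the 27305 promoters of the table reach or exceed. MEIS1 holds 16, reached by 40.8%, and GSDME holds 28, reached by 15.5%. A CG reads the same on both strands, and methylation was not measured on these arrays.

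The HOX genes measured were mostly low. In the HOXB, HOXC and HOXD clusters 7 of 27 genes were above the reference level, 2 were mixed (HOXB9 and HOXD9) and 18 were not above it. HOXC6 had 8.45, 8.47 and 8.78, HOXB4 had 7.25, 7.33 and 7.33, and HOXB3 had 7.19, 7.16 and 7.21, and these 3 kept their class in each setting. HOXC4, HOXC5, HOXC11 and HOXB5 were above it but unstable. Genes beside them in their clusters, HOXB2 (4.08, 3.87 and 3.88), HOXB6 (4.35, 4.06 and 4.03), HOXC8 and HOXC9, were not. The probes of neighbouring HOX genes can read transcripts that span more than 1 gene. HOXA2 was the gene of the HOXA cluster that was measured, at 3.43, 3.64 and 3.39.

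Among 16 genes that partner or follow KMT2A fusions, 11 were above the reference level, 1 was mixed and 4 were not above it. CDK6, the cell cycle kinase, stood at 11.55, 11.62 and 11.55, LAMP5, a lysosomal membrane protein, at 10.56, 10.71 and 10.72, and RUNX2, a transcription factor, at 9.56, 9.61 and 9.61. MEF2C had 8.77, 8.82 and 9.17, PBX3, a HOX cofactor, had 8.36, 8.25 and 8.42, and ZNF521 had 7.86, 7.89 and 7.87. MEIS1, the other HOX cofactor and a common target of KMT2A fusions, was not above the reference level at 3.30, 3.31 and 3.53, between percentile 21.0 and 27.1, with neither of its probe sets above it. EYA1, HMGA2 and SIX4 were not above it either, and IGF2BP2 was mixed at 5.62, 5.63 and 5.90.

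The genes of the KMT2A complex and of its fusion partners were above the reference level in 20 of 22 cases. KMT2A (unstable) had 7.19, 7.34 and 7.68, with array 13 highest, and 4 of its 11 probe sets were above the level. AFDN had 8.84, 8.84 and 8.99, and 1 of its 7 probe sets was above it, and it was unstable too. Where these probe sets lie relative to the fusion point was not examined, so fusion and normal transcripts were not told apart here. The cofactors on which KMT2A fusions depend were stable: PSIP1 had 11.27, 11.20 and 11.29, MEN1, which encodes menin, had 8.19, 8.22 and 8.20, and the methyltransferase DOT1L had 7.34, 7.25 and 7.50. MLLT3 (4.90, 4.84 and 4.87) and MLLT11 were not above the reference level, both unstable.

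**Figure D3:**
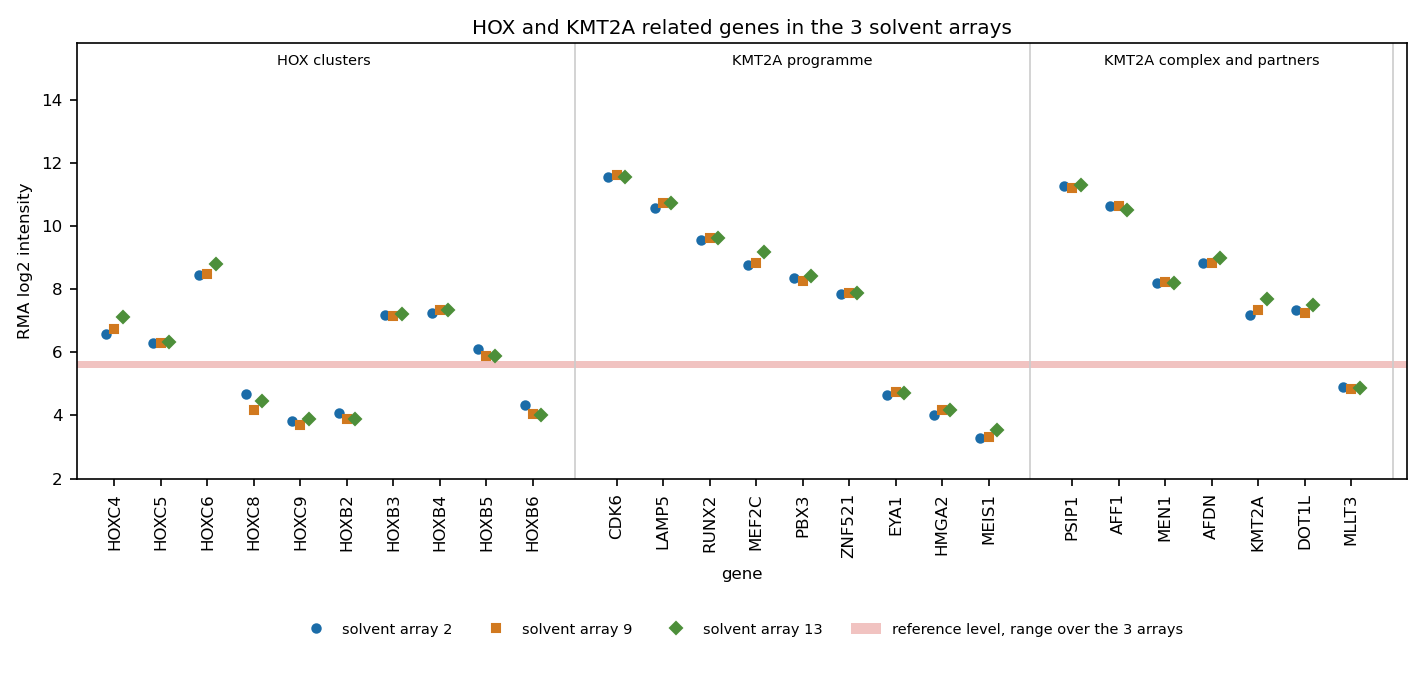
RMA log2 intensity of HOX genes, genes of the KMT2A fusion programme and genes of the KMT2A complex and its fusion partners in solvent arrays 2, 9 and 13. CDK6, LAMP5 and PSIP1 lie between 10.56 and 11.62, whereas MEIS1, HMGA2, HOXB2 and HOXC9 lie below the shaded reference level in every array.

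Recurrently mutated leukaemia genes gave 23 of 24 above the reference level. NPM1, a nucleolar chaperone, stood at 13.27, 13.27 and 13.26, and WT1, a transcription factor overexpressed in leukaemia, at 8.29, 8.37 and 8.26. NF1, a brake on RAS signalling, was the exception at 3.37, 3.52 and 3.60, read from 1 probe set. DNMT3A, a DNA methyltransferase, was above it but unstable at 6.54, 6.41 and 6.62. Surface targets and marker genes of this leukaemia gave 9 of 21 above it. CD47, the signal that blocks phagocytosis, had 10.83, 10.86 and 10.98, and CD70, a TNF family ligand, had 9.54, 9.29 and 9.58. CD99 and IL1RAP were above it too. IL3RA, the CD123 interleukin-3 receptor chain, was mixed at 5.72, 5.71 and 5.51, CLEC12A was unstable, and PRAME, IL2RA, CCND2 and CD96 were not above it.

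Cytokine receptor genes gave 12 of 20 above the reference level, or 60.0%, against 49.9% of all genes. Those with several probe sets gave 64.3%, near the 63.5% of all such genes. IL6R had 10.69, 10.65 and 10.59, and IFNGR1 and IFNGR2, the chains of the interferon gamma receptor, had 9.27, 9.16 and 9.30, and 9.55, 9.46 and 9.36. CSF2RB, the shared chain of the granulocyte-macrophage growth factor receptor, was above it at 6.61, 6.43 and 6.84 and CSF2RA, its ligand-binding chain, was not, at 5.19, 5.37 and 5.18. The classes of IFNGR1, CSF2RB and CSF2RA were unstable.

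Death receptor genes were above the reference level in 11 of 16 cases, or 68.8%, against 49.9% of all genes. Those with several probe sets gave 63.6%, near the 63.5% of all such genes. TNFRSF1A, the main TNF receptor, stood at 9.77, 9.65 and 9.76. TNFRSF10B and TNFRSF10A, the death receptors for TRAIL, stood at 9.62, 9.44 and 9.54, and 7.76, 7.57 and 7.66. Array 9 was lowest for all 3 genes. Of the TRAIL decoy receptors, TNFRSF10D was above the level at 7.09, 6.67 and 7.12, whereas TNFRSF10C was not, at 4.77, 4.77 and 4.85 (unstable). The probes of these related genes can read each other's transcripts. FAS had 7.09, 6.75 and 6.93, with 3 of its 5 probe sets above the level, and was unstable.

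Of the ligand genes 4 of 8 were above the reference level. TNF had 6.11, 6.33 and 6.34, and TNFSF10, which encodes TRAIL, had 5.95, 5.81 and 5.99, and both were unstable. TNFSF13B, a B cell survival ligand, was the stable member at 8.37, 8.20 and 7.98. FASLG was not above it at 4.14, 4.16 and 4.04, and neither were LTA and TNFSF14.

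The adaptors and kinases that sit on these receptors were above the reference level in 16 of 21 cases. FADD, which links death receptors to caspase-8, stood at 9.15, 9.10 and 9.22. CASP8 itself had 8.17, 7.98 and 8.09, and CFLAR, which encodes its inhibitor c-FLIP, had 8.65, 8.45 and 8.57, with 10 of 14 probe sets above the level. Both were unstable. CASP10, the close relative of CASP8, was mixed at 5.73, 5.46 and 5.89. RNF31, a subunit of the linear ubiquitin ligase, was mixed, and TRAF5, TRAF1 and the kinase gene MAP3K14 were not above it, the last 2 unstable.

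Genes of the IAP family were above the reference level in 4 of 6 cases, and those 4 held in each setting. The share was 66.7%, against 49.9% of all genes and 63.5% of those with several probe sets. BIRC2, a protein that ASTX660 binds, had 9.89, 9.89 and 10.07, and XIAP had 9.24, 9.17 and 9.18. BIRC5, which encodes survivin, had 10.90, 10.80 and 10.87, and BIRC6 had 9.34, 9.19 and 9.13. NAIP was mixed at 5.42, 5.28 and 5.60 and BIRC7 was not above it at 3.92, 4.18 and 3.60. The natural IAP antagonists were present as well, with 4 of 5 above it. DIABLO, which encodes SMAC, had 10.67, 10.80 and 10.77, and HTRA2 had 8.15, 8.22 and 8.36.

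Most genes of the mitochondrial arm were above the reference level, in shares near the 63.5% of all genes with several probe sets. The share over all genes was 49.9%. Of 6 anti-apoptotic BCL2 genes 4 were above it. MCL1 stood at 10.55, 10.49 and 10.73, BCL2 at 9.68, 9.58 and 9.65 and BCL2L1, which encodes BCL-XL, at 7.54, 7.54 and 7.53. BCL2A1 was not above it at 3.24, 3.23 and 3.56, and neither was BCL2L10 (unstable). The pore-forming effectors BAX (8.99, 8.80 and 8.85) and BAK1 (7.65, 7.55 and 7.66) were above it, and BOK (unstable) was not. Of 10 BH3-only genes, whose proteins trigger the effectors, 7 were above it. BIK had 11.04, 11.07 and 10.96, BID had 10.64, 10.68 and 10.73, PMAIP1, which encodes NOXA, had 9.21, 9.26 and 9.61, and BCL2L11, which encodes BIM, had 9.15, 9.15 and 9.19. HRK was not above it. Of the genes with several probe sets, 4 of 5 anti-apoptotic, 1 of 2 effector and 5 of 8 BH3-only genes were above the reference level. These groups are small, and whether their shares differ from that of all genes was not tested.

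Caspase and apoptosome genes were above the reference level in 13 of 14 cases, among them APAF1 (9.96, 9.72 and 9.83) and CASP9 (unstable), and the skin caspase gene CASP14 was the exception. Of 14 genes of the p53 circuit 11 were above it, all of them stable. MDM2, the ligase that degrades p53, stood at 10.22, 9.99 and 10.07, MDM4 at 9.42, 9.50 and 9.47, and CDKN1A, which encodes the cell cycle inhibitor p21, at 8.17, 7.90 and 8.32. CDKN2A and CDKN2B, inhibitors of CDK4 and CDK6, were not above it at 4.64, 4.72 and 4.61, and 3.99, 4.03 and 3.88. TP73 was not above it either, with an unstable class.

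Genes of lytic cell death were above the reference level in 10 of 19 cases, a share near that of all genes. The necroptosis kinase gene RIPK3 had 6.92, 6.73 and 6.79 and MLKL, which ruptures the membrane, had 8.27, 7.91 and 7.98. Among inflammasome genes PYCARD, the adaptor, had 11.23, 11.15 and 11.08, CASP1 had 9.51, 9.57 and 9.32, and the sensor NLRP3 had 9.47, 9.36 and 9.61. The pore gene GSDMD had 8.83, 8.92 and 8.83. GSDME, the pore gene cut by caspase-3, was not above the level at 4.86, 5.05 and 4.94, and the sensors AIM2, ZBP1 and NLRC4 were not above it either. GSDME and NLRC4 were unstable. NLRP1 and IL18 were mixed.

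**Figure D4:**
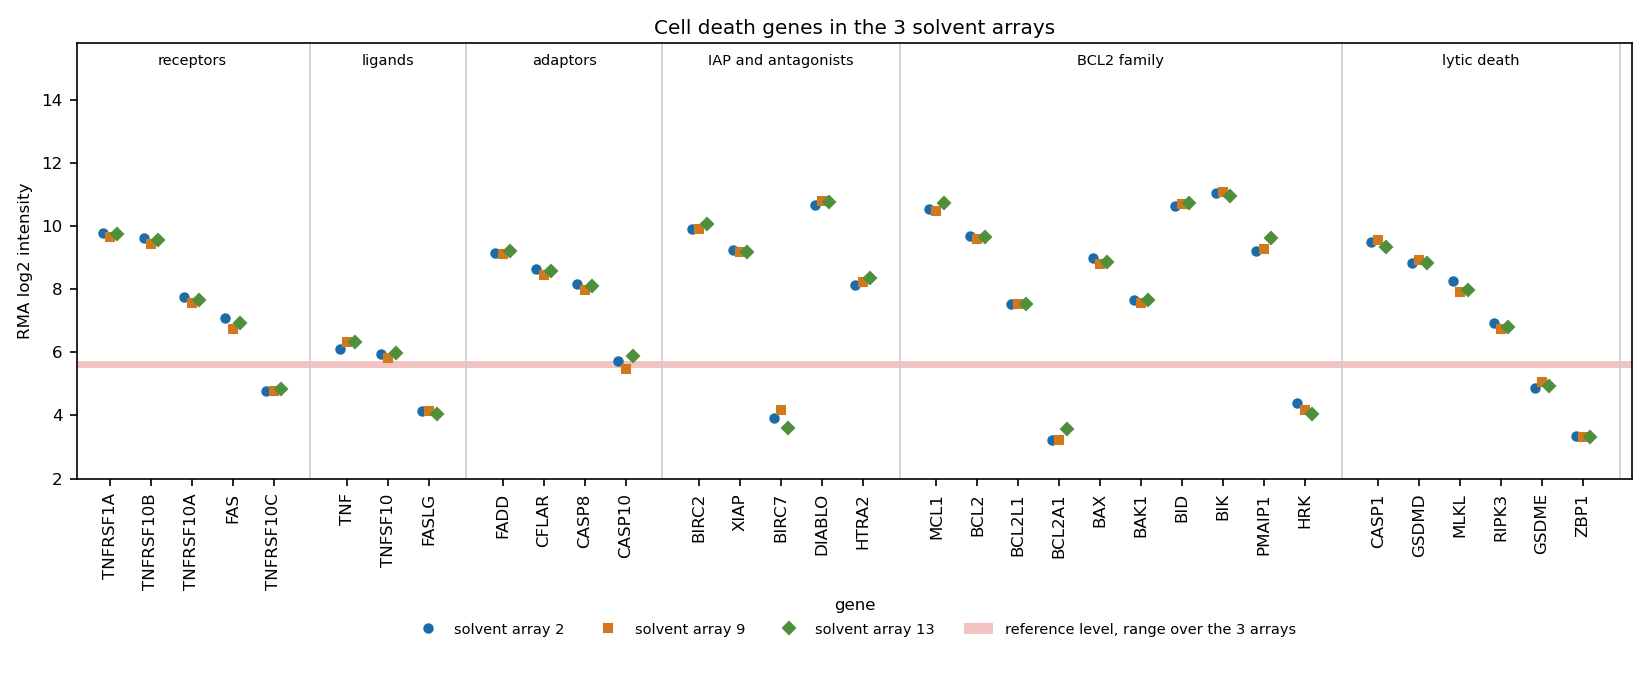
RMA log2 intensity of cell death genes in solvent arrays 2, 9 and 13, grouped by role. DIABLO, BIK, BID and MCL1 lie between 10.49 and 11.07, and FASLG, BIRC7, BCL2A1, HRK and ZBP1 lie below the shaded reference level in every array.

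The treated arrays show which of these classes held when the cells received drug. With SGI-110 alone, of the 262 listed genes above the reference level in solvent cells 259 were above it in the 3 SGI-110 arrays, and of the 213 not above it 199 were not above it with SGI-110. These are 98.9% and 93.4%, against 99.5% and 95.9% of all genes in the same classes. The reference level itself lay between 5.38 and 5.57 in the SGI-110 arrays, against 5.50 to 5.72 in the solvent arrays, and its part in changes of class was not tested. The p-values here measure the spread between the 3 experiments of each group.

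In the limma fit of all 12 arrays 75 listed genes were higher with SGI-110, 7 were lower and 415 did not pass, at a Benjamini-Hochberg adjusted p under 0.05. Over all 19775 genes limma called 1751, or 8.85%, with 5.56% higher and 3.29% lower. The median difference was 0.03 log2 units over listed genes and -0.01 over all genes. The share of listed genes called was 16.5%. The lists were chosen with earlier results of these data known, so the shares of listed genes called are descriptions and not a test against all genes. With the array number as a block 112 listed genes were higher and 23 lower, and 3051 of all genes were called. Without solvent array 9 there were 1066 calls over all genes and 54 among listed genes. The listed count was 47 without SGI-110 array 13, and all genes then gave 1114.

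In 7 listed genes, or 1.41%, limma called a gene higher that was mixed or not above the reference level in solvent cells and was above it in all SGI-110 arrays. The share over all genes was 0.587%. No listed gene was called lower and lost the class of above the reference level, against 0.0202% of all genes. GSDME had 5.93, 5.86 and 5.63 in SGI-110 arrays 2, 9 and 13, against 4.86, 5.05 and 4.94 in the solvent arrays. The groups did not overlap, a trait whose share over all genes was not counted. The difference was 0.86 log2 units (SE 0.102, 1.81-fold, limma adjusted p = 7.86e-05). NLRC4 had 5.96, 5.81 and 6.03 with SGI-110 and 5.44, 5.17 and 5.35 with solvent (0.61 log2 units, SE 0.131, limma adjusted p = 0.00704). The mean of both NLRC4 probe sets differed by 0.40. These 2 genes moved from none of the solvent arrays above the level to all SGI-110 arrays above it, as did 0.283% of all genes.

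The other 5 were mixed in solvent cells. NFE2, a factor of erythroid and megakaryocyte precursors, had 6.56, 6.63 and 6.40 with SGI-110, against 5.68, 5.54 and 5.29 with solvent (1.03 log2 units, SE 0.145, limma adjusted p = 0.000332). FGL2 had 6.50, 6.62 and 6.83, against 5.54, 5.15 and 5.76 (1.17, SE 0.144, limma adjusted p = 0.000108). Both genes were higher in every SGI-110 array than in any solvent array, a trait whose share over all genes was not counted. CSF1R rose by 0.52 (limma adjusted p = 0.0208), a call lost without SGI-110 array 13 (0.0644), SGI-110 array 2 (0.0968), solvent array 2 (0.0843) or solvent array 9 (0.0727). CD37 rose by 0.63 (limma adjusted p = 0.0463), a call lost without SGI-110 array 13 (0.144) or 2 (0.18), and without solvent array 13 (0.103) or 9 (0.23). It was also lost without the intensity trend (0.08), after quantile normalization (0.06) and with the mean of its probe sets (0.108, a difference of 0.33). IL18, an inflammasome cytokine, rose by 0.43 (limma adjusted p = 0.0339), and leaving out any of the 6 arrays ended that call, with adjusted p from 0.058 to 0.148. With the array number as a block the limma adjusted p was 0.00284 for CSF1R, 0.000126 for CD37 and 0.0113 for IL18.

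A further 6 listed genes were called higher and passed from none of the solvent arrays above the reference level to some of the SGI-110 arrays above it. They were EGR1, CEBPE, CD86, CYBB, CD9 and CSF2RA, and 0.202% of all genes made the same move. EGR1 had 5.82, 5.02 and 5.31 with SGI-110, against 4.54, 4.39 and 4.42 with solvent (0.93 log2 units, SE 0.166, limma adjusted p = 0.00192), and the mean of its probe sets differed by 0.60. CD9, a tetraspanin, had a difference of 1.12 (limma adjusted p = 7.24e-06), or 0.31 with the mean of its 3 probe sets (0.0152). CD86, a co-stimulatory ligand for T cells, had 5.07, 5.00 and 5.84, against 3.80, 4.43 and 4.01 (1.23, SE 0.311, limma adjusted p = 0.0203). That call was lost without SGI-110 array 13 (0.107), solvent array 13 (0.06) or solvent array 2 (0.0891), and with the mean of its probe sets (0.0821, a difference of 0.62). With the array number as a block the limma adjusted p of CD86 was 0.000269. CEBPE rose by 0.50 (limma adjusted p = 0.0443), and each array left out ended that call, at 0.0871 to 0.139, as did a fit without the intensity trend (0.0668) and the mean of probe sets per gene (0.0527). CYBB, a phagocyte oxidase subunit, rose by 0.59 (limma adjusted p = 0.0155), a call lost without SGI-110 array 13 (0.0853) or 2 (0.0533), without solvent array 9 (0.0508) and with the mean of its probe sets (0.197, a difference of 0.19). Its class was unstable. CSF2RA rose by 0.35 (limma adjusted p = 0.0368), a call lost without SGI-110 array 2 (0.0788), 9 (0.134) or 13 (0.0717), without solvent array 2 or 13 (0.129 each) and with the mean of its probe sets (0.0741, a difference of 0.22).

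Among listed genes called higher, the 4 with the largest differences were already above the reference level in solvent cells. CDKN1A had 10.46, 10.29 and 10.64 with SGI-110, against 8.17, 7.90 and 8.32 with solvent (2.33 log2 units, SE 0.112, limma adjusted p = 6.75e-09). ACTA2, a smooth muscle actin gene, had 8.77, 8.24 and 8.94, against 7.36, 6.62 and 7.42 (1.51, SE 0.228, limma adjusted p = 0.000549), and the mean of its 3 probe sets differed by 0.53 (0.00379). In the RefSeq annotation its locus overlaps that of FAS, which had 8.48, 8.44 and 8.34, against 7.09, 6.75 and 6.93 (1.49, limma adjusted p = 1.72e-07). MDM2 had 11.45, 11.44 and 11.36, against 10.22, 9.99 and 10.07 (1.32, limma adjusted p = 6.11e-08). The SGI-110 and solvent arrays did not overlap in these 4 genes, which were picked as the largest called differences. The lack of overlap therefore adds no support, and its share over all genes was not counted. VCAN, mixed in solvent cells, differed by 1.39 and did not pass (limma adjusted p = 0.0585), but passed with the array number as a block (3.69e-11).

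The 7 listed genes that were lower were all above the reference level in both groups. IRF8 had 11.46, 11.33 and 11.35 with SGI-110, against 11.82, 11.74 and 11.84 with solvent (fell by 0.42, SE 0.0615, limma adjusted p = 0.00048). SPN, the leukocyte sialophorin, fell by 0.41 (limma adjusted p = 0.00192), IDH1, a metabolic enzyme, by 0.36 (0.00656), and DFFA, an inhibitor of the apoptotic nuclease, by 0.27 (0.00472). HSPD1, a mitochondrial chaperone, fell by 0.17 (limma adjusted p = 0.00223, or 0.0938 without the intensity trend), and CYCS, cytochrome c, fell by 0.14 (0.036), a call lost without SGI-110 array 13 (0.177), solvent array 13 (0.126) or solvent array 2 (0.137), without the intensity trend (0.232) and after median centring (0.0508). With the mean of its probe sets CYCS fell by 0.26 (0.0175). BCL2 had 9.27, 9.41 and 9.25, against 9.68, 9.58 and 9.65 (fell by 0.33, limma adjusted p = 0.0139), a call lost without SGI-110 array 13 (0.0629) or 2 (0.0593), without solvent array 2 (0.0617), or with the mean of its 4 probe sets (0.197), which fell by 0.12. With the array number as a block the limma adjusted p of BCL2 was 0.00132. The plot of SGI-110 and solvent levels shows genes of each kind.

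**Figure D5:**
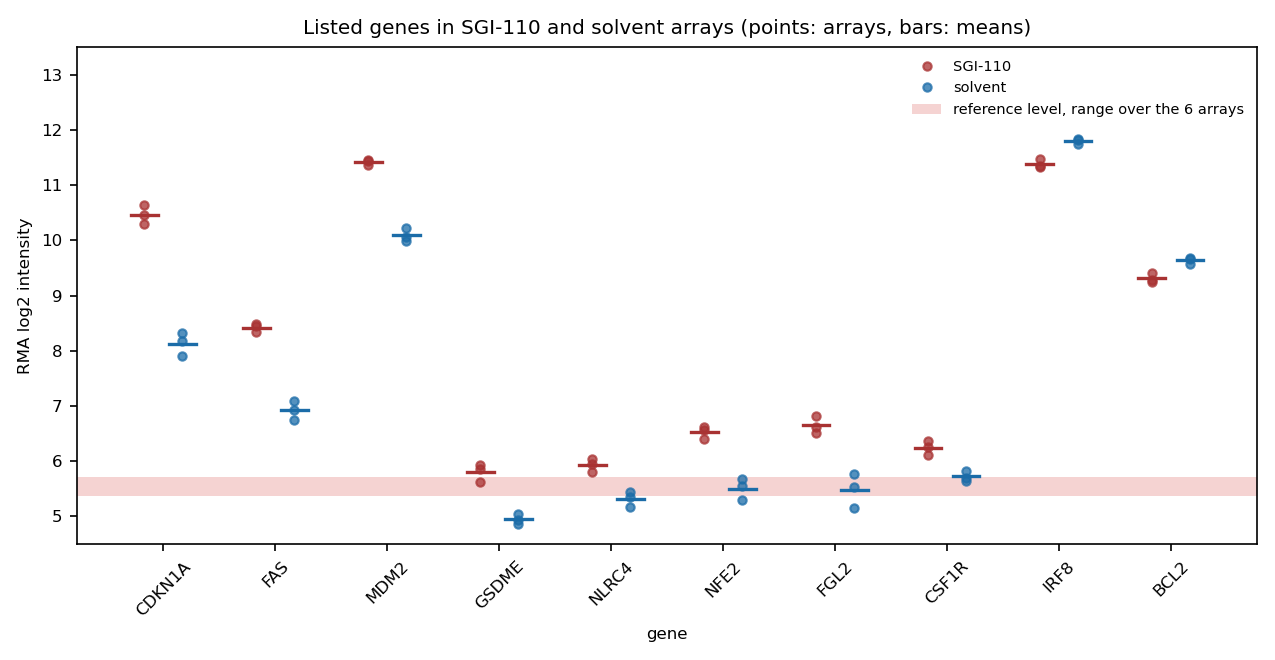
RMA log2 intensity of 10 listed genes in the SGI-110 arrays (red) and solvent arrays (blue), with points for arrays and bars for group means. The shaded band spans the reference level of the 6 arrays. GSDME and NLRC4 lie below the level of each solvent array and above that of each SGI-110 array. GSDME in SGI-110 array 13 (5.63) and NLRC4 in solvent array 2 (5.44) lie inside the band. IRF8 and BCL2 are slightly lower with SGI-110 and far above the band in both groups.

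Other genes low in the solvent profile stayed low. MEIS1, KIT, CD14, S100A9, BIRC7, FASLG and CDKN2A were not above the reference level in the SGI-110 arrays either, and none of these 7 was called. BCL2A1 was called higher by 1.06 log2 units (limma adjusted p = 0.00238) and was still not above the reference level.

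With ASTX660 alone limma called 0 of 19775 genes at an adjusted p under 0.05, or 0%, and the smallest adjusted p was 0.614. At an unadjusted p under 0.05 there were 1511. With the array number as a block 2 genes were called, LSS (0.45 log2 units higher, adjusted p = 0.00559) and ACAT2 (0.32 higher, adjusted p = 0.0408), both enzymes of sterol synthesis and neither a listed gene. Of the 262 listed genes above the reference level in solvent cells 258 were above it with ASTX660, and of the 213 not above it 209 were not. These are 98.5% and 98.1%, against 99.4% and 97.4% of all genes in the same classes. A median difference of -0.01 log2 units was seen over the listed genes.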

How the data were processed

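RNA of 12 ML-2 cultures was measured on 1-colour expression arrays. The authors deposited log2 intensities made with affy and RMA, per the submitters' processing notes. For versions, and for whether all arrays were normalized together, the sources used here hold no statement. Every sample column was used. Arrays give no read depth, so the number of arrays limits the precision.

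The platform annotation listed 42898 of 54675 probe sets. Those with several genes (1801) and control probe sets were set aside, 41091 were used, and 41037 matched the gene table. Array symbols can be old. Each gene was read from its brightest probe set over the 12 arrays, a choice blind to group. The reference level is the 95th percentile of 158 genes of 6 families, 132 of which had 1 probe set, whereas many listed genes had several.

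Linear models were fitted in limma (3.58.1, under R 4.3.3) to all 12 arrays with a mean for each group, an intensity trend, 8 residual degrees of freedom and Benjamini-Hochberg adjustment over 19775 genes. No filter on low values was applied. Changes are differences of log2 intensities and understate changes of dim genes. Summaries used Python 3.11.15 with pandas 2.3.3. Both steps were tested on simulated data.

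Deviations from the group means correlated between same-numbered arrays of SGI-110 and solvent (0.377, 0.367 and 0.572 for numbers 2, 9 and 13) and of ASTX660 and solvent (0.321, 0.471 and 0.55), each over 0.1. The numbers were therefore read as pairing the arrays, and the replicate block was fitted as an alternative.

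Named genes were the key members of each list, all mixed members, members whose class differed in a treated group with a call, and the 5 largest called changes each way, with some left out for length. The lists were written from general knowledge, and members and lists were chosen with earlier results of these data known. Sequences are from the RefSeq promoter table (GRCh38.p14).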

Additional observations from a re-analysis of the deposited data

How the results depend on the processing

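The count of genes above the reference level ranged from 8020 (reference at the 99th percentile) to 12050 (median of all probe sets as reference) around 9863, and the listed count from 213 to 324 around 262. Leaving out a solvent array gave 9879 to 10102 genes. Of 352 list counts 328 stayed within 1.5 times their value and 24, in 13 lists, did not. For SGI-110 against solvent, with 1751 calls as reported, pairing the arrays by a replicate block gave 3051, and leaving out 1 array gave 1066 to 1371, the lowest without solvent array 9 and then without SGI-110 array 13 (1114). For ASTX660 against solvent the replicate block gave 2 calls, against 0 as reported and in each other setting run. The block added calls and did not end any call of a named gene. Of 204 values of 17 named genes in the SGI-110 alternatives 179 kept their side of the threshold, 25 lost the call and 0 changed direction. These 17 genes leave out others whose SGI-110 calls are given above, among them CEBPE, CSF2RA, CYBB, CD9, EGR1, CYCS and HSPD1. The calls of CEBPE, CSF2RA, CYBB, CYCS and HSPD1 were also lost in some settings. The 25 lost calls are therefore not the total for all named genes. The count of CG by class is void, since 77.8% of genes and 72.0% of listed genes had a promoter in the table, under the 80% needed. The cause of these moves was not tested.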

Other observations

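These genes were chosen after their values were seen. DEFB1, a beta defensin known from epithelia, belongs to the families behind the reference level and yet stood at 12.82, 12.79 and 12.79 in solvent arrays 2, 9 and 13, above percentile 99.4. It was the brightest of 6 reference genes above the level, and the others were DEFB124, KRTAP1-3, KRTAP4-8, KRTAP5-8 and TAS2R14, which ranged from 5.58 to 6.80. DEFA4, a neutrophil defensin of primary granules, stood at 13.96, 13.85 and 13.67, and IRX3, a homeobox factor, at 12.47, 12.19 and 12.48.

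In 39 genes the solvent arrays differed by more than 1 log2 unit, and array 13 was farthest from the median in 31 of them and highest in 28. CLU, which encodes clusterin, had 5.29, 5.55 and 7.56, and HLA-DPA1, a class II antigen presentation gene, had 7.54, 6.48 and 8.39, with 1 of its 3 probe sets above the reference level. The SGI-110 arrays had the same order, with 6.23, 6.66 and 8.25 for CLU and 7.51, 6.70 and 8.50 for HLA-DPA1. The ASTX660 arrays had 5.58, 5.97 and 7.51 for CLU and 7.66, 6.49 and 8.42 for HLA-DPA1. The labels do not say what the number 13 stands for, and what sets these arrays apart was not tested.

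In all genes, 4 were called lower with SGI-110 and passed from above the reference level in solvent cells to mixed or not above it, or 0.0202%. They were KATNAL2, PDYN, TTLL11 and ZNF383, and no listed gene was among them.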
